A study of Rattus norvegicus with 8 samples.

Results

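The matrix metalloproteinases and their TIMP inhibitors were followed in the ovary of a rat model of polycystic ovarian syndrome. The set holds 8 genes chosen by family membership, the 5 enzymes Mmp2, Mmp9, Mmp11, Mmp14 and Mmp23 and the 3 inhibitors Timp1, Timp2 and Timp3. All 8 were measured, by 17 probe sets that carry the symbol of 1 gene, out of 20826 such probe sets for 14217 genes on the array. Each gene is represented by the brightest of its probe sets, that is the one with the largest mean over the single animals, and the others are given beside it. The DHT-treated animals were female Sprague-Dawley rats that carried a silicone capsule releasing 5α-dihydrotestosterone (DHT), an androgen that aromatase cannot turn into estrogen, for 12 weeks. The CTL animals were rats of the same strain and sex with an empty capsule. Both groups were killed at 15 weeks of age, and RNA of the ovarian cortex was read on Rat Genome 230 2.0 arrays, with 3 arrays of single DHT-treated animals, 3 of single CTL animals and 1 array of pooled RNA of the same animals per group. Per the methods of the study, corpora lutea were present in most CTL ovaries and absent or very few in DHT-treated ovaries, so the groups also differ in which structures the tissue held. In such bulk RNA, fewer cells of a type and less RNA per cell cannot be told apart.

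Matrix metalloproteinases are zinc-dependent endopeptidases that cut collagens, laminins and other proteins of the extracellular matrix, and most are made as inactive proenzymes. The secreted gelatinases Mmp2 and Mmp9 cut type IV collagen of basement membranes, Mmp14 is anchored in the cell membrane and activates the proenzyme of Mmp2, Mmp11 (stromelysin 3) leaves the cell in active form after cleavage by furin, and Mmp23 is a short family member expressed mainly in the ovary and other reproductive tissues. TIMPs bind the active site of these enzymes, Timp3 stays bound to the matrix, and Timp2 at low amounts also serves as a bridge between Mmp14 and the proenzyme of Mmp2. In the ovary the family is known for the remodelling that accompanies follicle growth, rupture of the follicle wall and the rise and loss of the corpus luteum.

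Values are on the log2 scale after GCRMA, a background correction and normalization for this kind of array, and 1 unit stands for a 2-fold difference. Probe sets of olfactory, vomeronasal and taste receptors, genes of sensory tissue, set a background level of 2.62 to 3.02, depending on the array. CTL replicate 3 stood apart. Its Pearson r over all probe sets was 0.898 to 0.907 with DHT-treated animals, against 0.866 and 0.879 with CTL replicates 1 and 2, where the other pairs of animals reached 0.927 to 0.995. The excess of the 3' over the 5' control signal of Gapdh, a sign of how far the labelled RNA is short at its 5' end, on the log2 scale was 2.99 to 3.98 in the DHT-treated animals, against 0.39, 0.62 and 3.49 in the CTL animals. Of the probe sets above background on all 6 arrays, 36.2% had their lowest value on CTL replicate 3, and so did 4 of the 7 members above background, namely Mmp2, Mmp11, Timp1 and Timp2. Each member is therefore given with and without this animal. Neither comparison is the cleaner one. CTL replicate 3 was the only CTL animal with a Gapdh 3' excess in the range of the DHT-treated animals. Without it the excess was 2.99 to 3.98 in the DHT-treated animals against 0.39 and 0.62 in the CTL animals. Treatment and this excess then cannot be told apart.

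None of the 8 members was called higher or lower in DHT-treated ovaries by limma. A call required a 2-fold change, an unadjusted p up to 0.01 and an adjusted p within a false discovery rate of 10%. Over all 31042 probe sets tested, 320 were called (1.03%), 211 of them higher (0.68%) and 109 lower (0.351%), so that a count of 0 among 8 lies near the background. At an unadjusted p under 0.05 there were 2 members, Mmp23 and Timp3, both higher on average, against 11.9% of all probe sets. Timp3 was the only member in which every DHT-treated animal lay above every CTL animal, and no member showed the reverse order, where 17.5% of all probe sets had no overlap in one direction or the other. The log2 change was positive for 6 of the 8 members, with a median of 0.57, against -0.012 over the brightest probe sets of all 14217 genes. The latter include genes near background. Of probe sets near background on all 6 arrays, 94.6% were highest on CTL replicate 3. Over all 17 probe sets of the members the median was 0.21, with 10 positive and 7 negative. Over the 9 that were not the brightest it was -0.037. For the brightest probe sets of the members the median difference was 0.35 without CTL replicate 3, and against CTL replicate 3 alone it was 0.85. Leaving that animal out left 0 members called, while 1622 of all probe sets were called (5.23%), and with any DHT-treated animal left out no probe set was called.

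**Figure D1:**
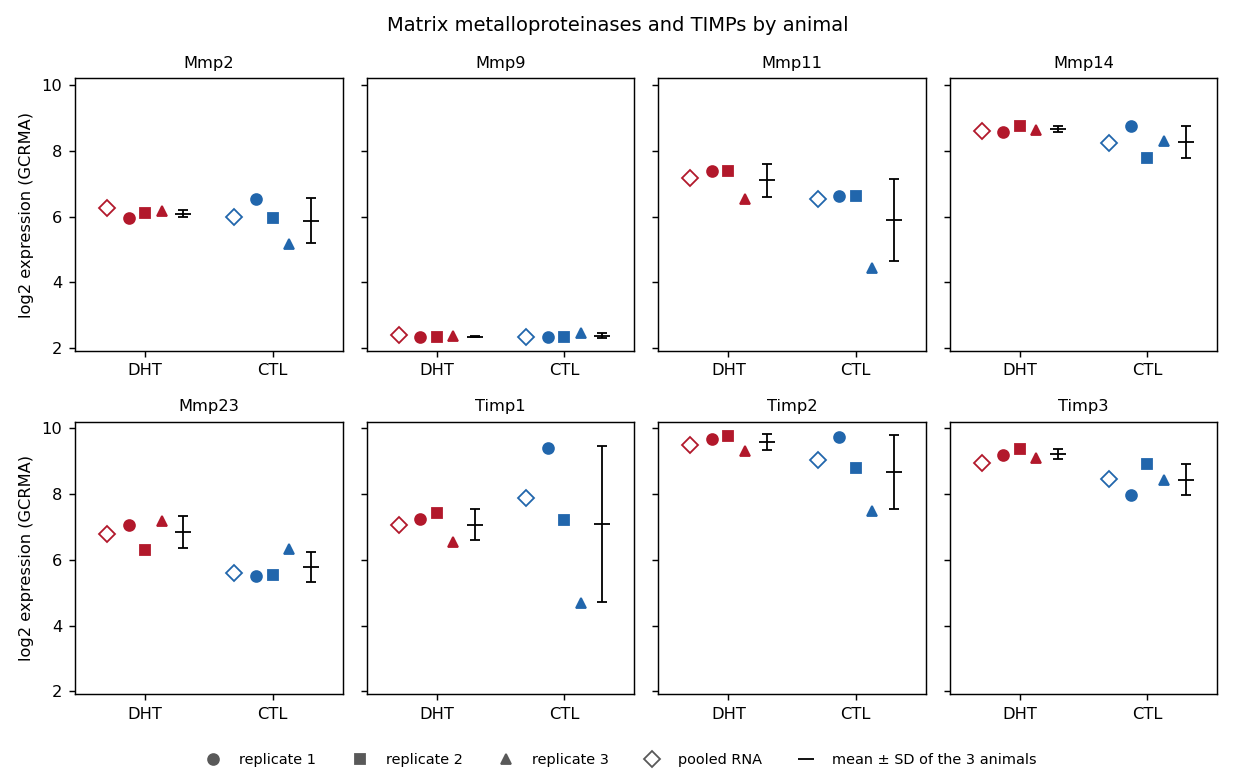
Log2 expression (GCRMA) of the 8 members in each animal, with DHT-treated animals in red at the left and CTL animals in blue at the right of each panel; filled symbols are single animals, open diamonds pooled RNA, and bars the mean ± SD of 3 animals. The CTL animals spread widely for Timp1 (4.68 to 9.41) and Mmp11 (4.45 to 6.62), and Mmp9 lies at background on every array.

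The gelatinase Mmp2 showed no difference beyond the spread of the animals. Its values were 5.97, 6.11 and 6.18 in the DHT-treated animals, against 6.52, 5.96 and 5.16 in the CTL animals. The CTL animals lay on both sides of the DHT-treated ones, and the CTL value below all others was that of replicate 3. The difference of the means, given as a log2 change, was 0.21 (standard error 0.35, adjusted p = 0.896), with a 95% interval of -0.69 to 1.10, and it was -0.15 without CTL replicate 3. The second probe set of Mmp2 lay at 2.12 to 2.14 in the DHT-treated animals and 2.12 to 2.28 in the CTL animals, below the background level throughout.

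Mmp9, the gelatinase best known from neutrophils and macrophages, was not detected above background by either of its probe sets on any of the 6 arrays. The brighter one read 2.34, 2.34 and 2.38 in the DHT-treated animals, against 2.33, 2.33 and 2.46 in the CTL animals. No fold or direction is read from it, since both groups lie under the background level, and the sign of the difference changed with the scaling of the arrays. The defining neutrophil genes S100a9 and Csf3r read 3.00 to 3.59 and 2.40 to 2.42 in the DHT-treated animals, against 2.87 to 3.24 and 2.40 to 2.65 in the CTL animals, and 3 of the 5 measured neutrophil markers were near background on all 6 arrays.

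Mmp14, which sits in the cell membrane and starts the activation of Mmp2, was well above background in every animal. It had 8.58, 8.75 and 8.64 in the DHT-treated animals, against 8.74, 7.78 and 8.29 in the CTL animals. CTL replicate 1 reached the level of the DHT-treated animals and the other CTL animals lay below them. Its change of 0.38 on the log2 scale (standard error 0.25, adjusted p = 0.73) was 0.39 without CTL replicate 3. A dimmer probe set of the same gene ran the other way, with 4.06, 4.48 and 3.80 in the DHT-treated animals and 5.13, 5.22 and 4.12 in the CTL animals, a log2 change of -0.71 (standard error 0.36, adjusted p = 0.549). Without CTL replicate 3 its change was -1.07 (unadjusted p = 0.0113, adjusted p = 0.0848), which was no call. With arrays weighted by quality it was called lower (-1.05, adjusted p = 0.0547), where 1874 of 31042 probe sets were called. With the Gapdh 3' excess in the fit it was 0.049. With the mean of both probe sets the change of Mmp14 was -0.17, so the array gives no settled direction for this gene.

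Mmp11, a stromal enzyme of tissue remodelling, had the largest difference in group means of the 5 enzymes. Its values were 7.39, 7.40 and 6.53 in the DHT-treated animals, against 6.62, 6.61 and 4.45 in the CTL animals. The DHT-treated replicate 3 lay just below CTL replicates 1 and 2, so that the groups overlapped, and CTL replicate 3 was far below the rest. Mmp11 had a log2 change of 1.21 (standard error 0.68, adjusted p = 0.62), a 2.32-fold difference of the means with a 95% interval on the log2 scale of -0.52 to 2.95. Without CTL replicate 3 it was 0.49 (adjusted p = 0.408), and the pooled arrays differed by 0.64. With the Gapdh 3' excess of each array in the fit Mmp11 was called higher (2.69, adjusted p = 0.0157), in a fit that called 12.1% of all probe sets. In that fit 18153 of 31042 probe sets had an unadjusted p under 0.05. CTL replicate 3 was the only CTL animal with an excess near that of the DHT-treated animals. The adjusted change therefore leans on that array, where Mmp11 was lowest, and is not read as a rise of Mmp11.

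Mmp23 had the smallest p of the 8 members. The probe set with the highest mean read 7.06, 6.30 and 7.17 in the DHT-treated animals, against 5.51, 5.55 and 6.32 in the CTL animals. Only DHT replicate 2 and CTL replicate 3 overlapped, at nearly the same value. On average Mmp23 was 1.06 higher on the log2 scale (standard error 0.34, unadjusted p = 0.0246, adjusted p = 0.307), a 2.08-fold difference of the means with a 95% interval on the log2 scale of 0.20 to 1.91. It was 1.32 without CTL replicate 3, where the adjusted p of 0.0994 was inside the 10% limit and the unadjusted p of 0.0155 was not inside the limit of 0.01. The study itself lists MMP23 among the genes with a raised mRNA level in DHT-treated ovaries, from a series that also holds the pooled arrays. The array of pooled DHT RNA lay 1.18 above the array of pooled CTL RNA. Counting the pooled arrays as replicate 4 of each group gave the only call of this probe set in any setting run (log2 change 1.09, adjusted p = 0.0537), where 3.11% of all probe sets were called and the RNA of the same animals was used again. The change was smaller, at 0.42 (adjusted p = 0.271), with the Gapdh 3' excess of each array in the fit, and at 0.57 (adjusted p = 0.197) as the mean of all 3 probe sets of the gene. After quantile normalization it was 0.88 (unadjusted p = 0.134, adjusted p = 0.656), a setting in which no member had an unadjusted p under 0.05.

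The other probe sets of Mmp23 did not show that difference. One read 4.87, 4.86 and 4.80 in the DHT-treated animals, against 5.05, 4.81 and 2.79 in the CTL animals, with a log2 change of 0.63 (standard error 0.63, adjusted p = 0.896) that came to -0.085 without CTL replicate 3 and to 1.97, a call (adjusted p = 0.0157), with the Gapdh 3' excess in the fit. CTL replicates 1 and 2 there lay close to the DHT-treated animals, and CTL replicate 3 lay below its background level. The remaining probe set read 2.57 to 2.86 in the DHT-treated animals and 2.62 to 2.72 in the CTL animals, and passed the background level in 1 animal of each group. The brightest probe set is of the type marked _s_at, whose probes can match more than 1 transcript, which was not tested here.

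**Figure D2:**
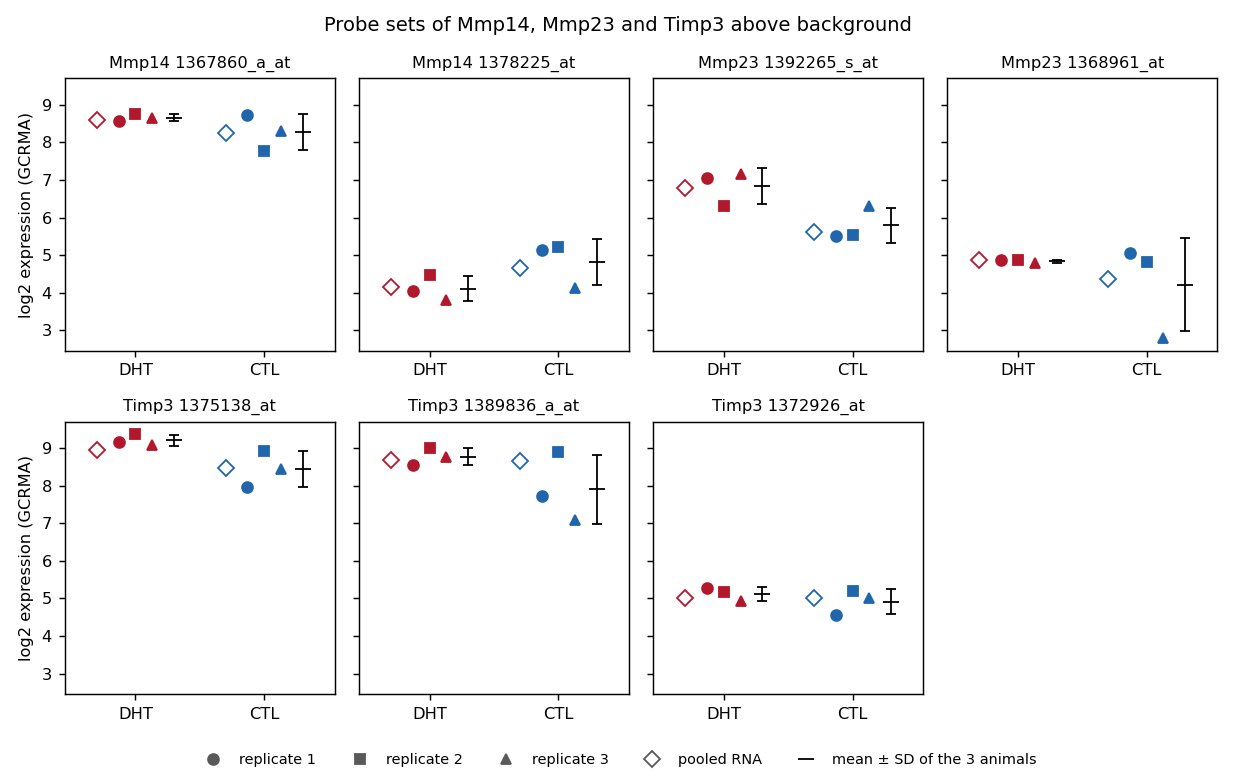
Log2 expression (GCRMA) of the probe sets of Mmp14, Mmp23 and Timp3 that were above background on at least 5 of the 6 arrays of single animals, with DHT at the left and CTL at the right of each panel and symbols as in the plot of members by animal. The 2 probe sets of Mmp14 run in opposite directions, and the difference seen with the brighter Mmp23 probe set (means 6.85 in DHT and 5.79 in CTL) is not seen against CTL replicates 1 and 2 with the dimmer one.

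Among the inhibitors, Timp3, the TIMP that is held in the matrix and also blocks several ADAM proteases, was higher in every DHT-treated animal than in any CTL animal. It had 9.17, 9.37 and 9.08 in the DHT-treated animals, against 7.97, 8.91 and 8.43 in the CTL animals. The gap between the lowest DHT-treated and the highest CTL animal was small beside the spread of the CTL animals. The difference came to a log2 change of 0.76 (standard error 0.25, unadjusted p = 0.0284, adjusted p = 0.329), a 1.70-fold difference of the means that falls short of the 2-fold criterion, with a 95% interval on the log2 scale of 0.12 to 1.41. Without CTL replicate 3 it was 0.76 as well, after quantile normalization 0.63 (adjusted p = 0.705), and as the mean of all 4 probe sets of the gene 0.40 (adjusted p = 0.498). A second bright probe set of Timp3 had 8.54, 8.99 and 8.75 in the DHT-treated animals, against 7.72, 8.90 and 7.08 in the CTL animals, where CTL replicate 2 reached the DHT-treated range. Its log2 change of 0.86 (standard error 0.48, adjusted p = 0.621) came to 0.45 without CTL replicate 3, and the pooled arrays differed by 0.040. A dimmer one gave 0.21 (adjusted p = 0.896), and the last lay below background on all 6 arrays.

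Timp2, the inhibitor that also takes part in the activation of Mmp2, had 9.66, 9.77 and 9.30 in the DHT-treated animals, against 9.73, 8.80 and 7.48 in the CTL animals. CTL replicate 1 stood within the DHT-treated range and CTL replicate 3 more than 1 unit below every other animal. Timp2 had a log2 change of 0.91 (standard error 0.59, adjusted p = 0.713), which was 0.31 without CTL replicate 3 and 0.29 as the mean of both its probe sets. Like Mmp11, it was called higher with the Gapdh 3' excess in the fit (2.12, adjusted p = 0.0167), with the same dependence on CTL replicate 3. A second probe set lay close to background, at 2.59 to 2.69 in the DHT-treated animals and 2.75 to 3.11 in the CTL animals, with no overlap of the groups (log2 change -0.33, adjusted p = 0.375).

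Timp1, a secreted inhibitor that responds to growth factors and inflammatory signals in many tissues, was the member that varied most between CTL animals. It had 7.23, 7.43 and 6.53 in the DHT-treated animals, against 9.41, 7.20 and 4.68 in the CTL animals. The group means were nearly the same, 7.06 ± 0.47 in DHT-treated and 7.10 ± 2.37 in CTL ovaries (SD, n = 3 each), while the lowest and the highest CTL animal lay on either side of all DHT-treated animals. Its log2 change of -0.032 (standard error 1.22, adjusted p = 0.992) had a 95% interval of -3.14 to 3.07, which allows a difference of up to several units either way. The sign was not stable: the change was 0.024 after median scaling, -1.24 without CTL replicate 3 and 1.13 without CTL replicate 1.

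**Figure D3:**
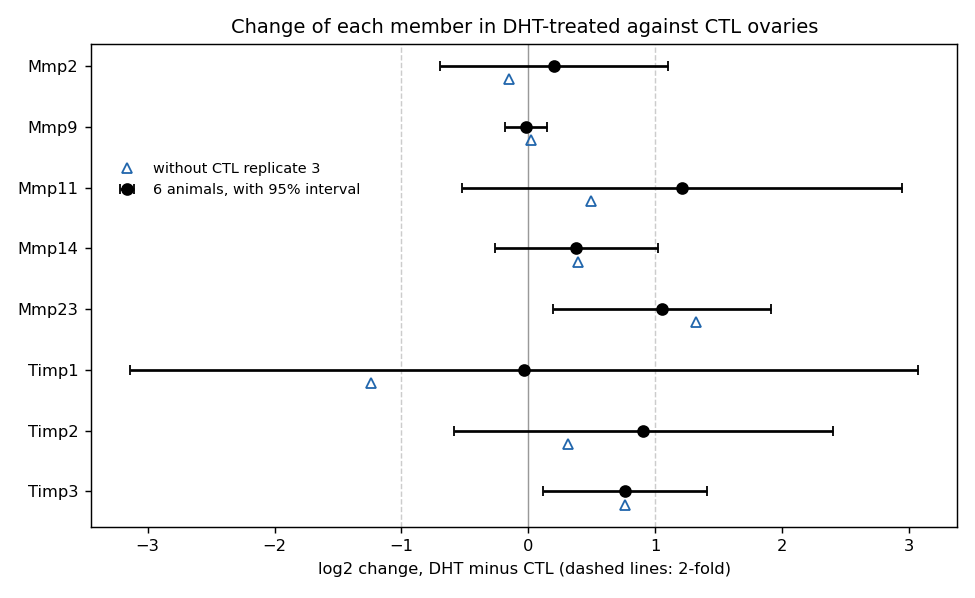
Log2 change in DHT-treated against CTL ovaries for each member (horizontal axis), as the difference of 3 DHT-treated and 3 CTL animals with its 95% interval from limma (filled circles and bars) and without CTL replicate 3 (open triangles); dashed lines mark a 2-fold difference. The unadjusted intervals of Mmp23 (0.20 to 1.91) and Timp3 (0.12 to 1.41) lie above 0, those of the other 6 members hold 0, and leaving out CTL replicate 3 moves Timp1 to -1.24 and Mmp11 to 0.49.

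The SDs within the groups are given as a description, and their order was not counted over all probe sets. In 7 of the 8 members, with Mmp9 at background among them, the SD was smaller among the DHT-treated animals. Over the 8 members the SDs were 0.023 to 0.50 among the DHT-treated animals, against 0.074 to 2.37 among the CTL animals. The exception was Mmp23, with 0.48 in DHT-treated and 0.46 in CTL ovaries. The CTL SDs include the outlying CTL replicate 3. Mmp11, for example, read 6.62 and 6.61 in CTL replicates 1 and 2 and 4.45 in CTL replicate 3. The differences between the 2 pooled arrays had the sign of the change in single animals for 7 of the 8 members, Mmp9 being the other. The pools hold RNA of the same animals and are no further evidence.

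Whether an enzyme and its usual partner among the inhibitors changed by unequal amounts was asked for 3 pairs, with the log2 difference of the pair in each animal and an exact two-sided permutation test, which cannot give a p below 0.1 with 3 animals against 3. The change of Mmp2 was 0.70 lower than that of Timp2 (difference of -0.70, exact p = 0.2, adjusted p = 0.6 over the 3 pairs). The pair difference was -3.69, -3.65 and -3.12 in the DHT-treated animals, against -3.21, -2.84 and -2.32 in the CTL animals, so that only CTL replicate 1 fell inside the DHT-treated range. For Mmp14 and Timp2 the difference of the changes was -0.53 (exact p = 0.5, adjusted p = 0.75), and 0.078 without CTL replicate 3. The pair of Mmp9 and Timp1 is not read (exact p = 1), since Mmp9 was below background on all 6 arrays and its pair difference holds little beyond the Timp1 values. Neither of the other pairs was shown to shift.

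Pearson correlations over the 6 animals are given as a description, since they rest on 6 values in 2 groups, and for Mmp2, Mmp11, Timp1 and Timp2 CTL replicate 3 is the lowest of them. Mmp11 and Timp2 ran together (r = 0.937), as did Mmp2 with Timp1 (r = 0.916) and with Timp2 (r = 0.898). Timp3 and Mmp2 had r = -0.018. Among 13952 probe sets of named genes above background on at least 3 of the 6 arrays, those most like Mmp11 were Acy1, an aminoacylase (r = 0.9998), Omd, a small matrix proteoglycan (r = 0.997), and Pygb, a glycogen phosphorylase (r = 0.996). Omd had 7.93, 7.94 and 6.87 in the DHT-treated animals, against 6.73, 6.95 and 4.25 in the CTL animals. Those most like Timp2 were Flna, an actin crosslinker (r = 0.998), Dock1, an activator of Rac (r = 0.992), and Cnppd1 (r = 0.989). As many as 1245 probe sets had r over 0.9 with Mmp11 and 996 with Timp2, so the pattern was shared widely.

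The other genes of matrix turnover were taken from 8 lists with 79 genes, of which 63 were measured. None was called higher or lower by limma in the comparison of single animals, against 1.03% of all probe sets. An unadjusted p under 0.05 was found for 12 of the 63, against 11.9% of all probe sets. Without CTL replicate 3, 2 were called higher (Plau and Pcsk5) and 3 lower (A2m, Bsg and Col4a1), against 5.23% of all probe sets. With the Gapdh 3' excess in the fit, 6 were called higher (Reck, Plau, Adam17, Col5a2, Col1a2 and Fn1), against 12.1% of all probe sets. In 18 of the 63 (28.6%) the DHT-treated and CTL animals did not overlap, against 17.5% of all probe sets. These shares are not like for like, since all probe sets include those near background on all 6 arrays. The 63 are the brightest probe sets of genes in lists chosen with earlier results of these data known.

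Of 8 further secreted metalloproteinases, all 8 had a negative log2 change, but 5 of them were near background on all 6 arrays. Mmp13, a collagenase that cuts fibrillar collagen, had 2.76, 2.67 and 2.75 in the DHT-treated animals, against 8.41, 3.57 and 3.92 in the CTL animals. The DHT-treated animals lay just above the background level of their arrays, and CTL replicate 1 alone was far above the other CTL animals. The log2 change was -2.57 (standard error 1.37, adjusted p = 0.585), and it was -1.02 without CTL replicate 1 (standard error 0.13, adjusted p = 0.112). Mmp12, the macrophage elastase, was likewise highest in CTL replicate 1, with 3.63, 4.35 and 3.25 in the DHT-treated animals and 7.05, 3.85 and 3.83 in the CTL animals (log2 change -1.17, adjusted p = 0.882, and -0.099 without CTL replicate 1). CTL replicate 1 also had the highest Timp1 value and the highest summed level of 10 macrophage markers, which was 8.35 to 8.61 on the log2 scale in the DHT-treated animals, against 9.30 and 8.97 in CTL replicates 2 and 3 and a level above both in CTL replicate 1. The part of these cells in the Mmp12, Mmp13 and Timp1 values was not tested. Mmp19 lay below background in every DHT-treated animal, at 2.60 to 2.65, against 2.79 to 3.49 in the CTL animals (adjusted p = 0.381).

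Of the 4 other membrane-anchored metalloproteinases measured, Mmp24 had 4.67, 4.64 and 4.67 in the DHT-treated animals, against 4.65, 6.07 and 5.81 in the CTL animals (log2 change -0.85, adjusted p = 0.489). CTL replicate 1 was at the DHT-treated level, and without it Mmp24 was called lower (-1.28, adjusted p = 0.0748). Mmp15 and Mmp17 had log2 changes of -0.17 and 0.40 (adjusted p = 0.836 and 0.621).

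**Figure D4:**
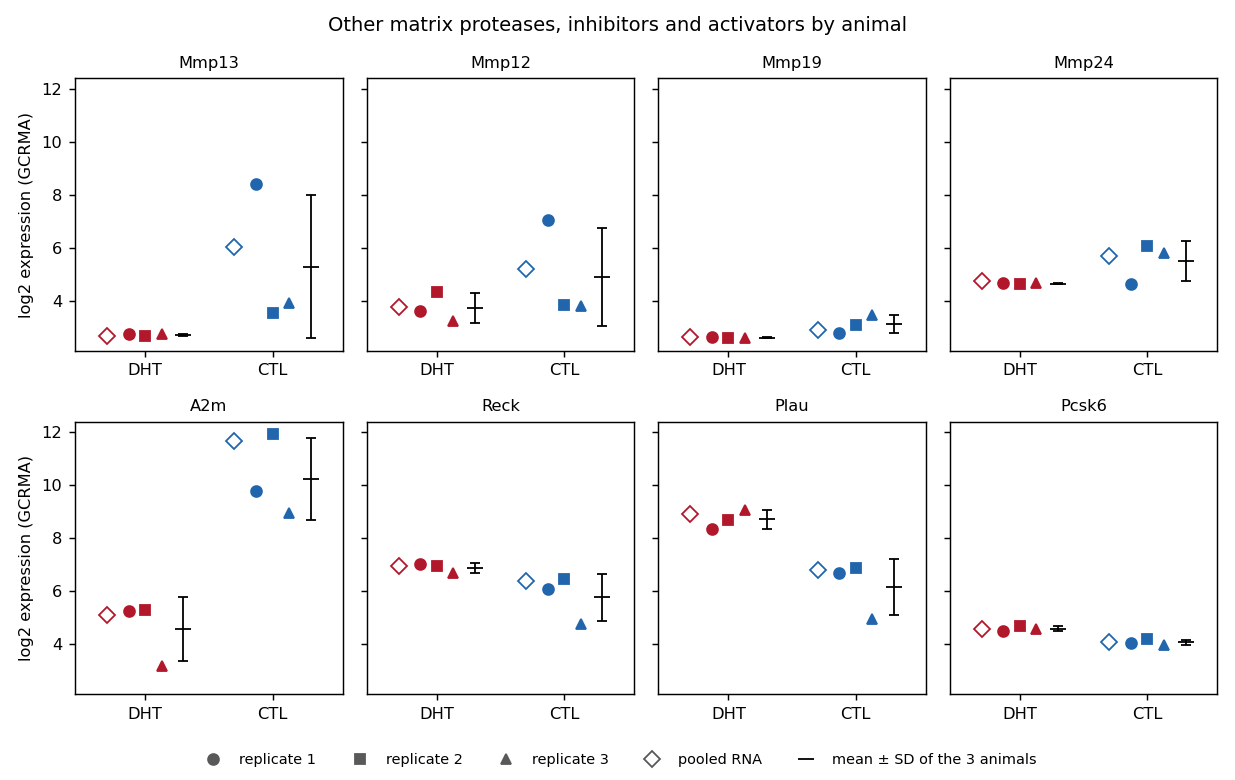
Log2 expression (GCRMA) of 8 further genes of matrix turnover in each animal, with DHT at the left and CTL at the right of each panel and symbols as in the plot of members by animal. Mmp13 and Mmp12 are high in CTL replicate 1 alone (8.41 and 7.05), A2m lies lower and Plau, Reck and Pcsk6 lie higher in all DHT-treated animals than in any CTL animal.

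Among inhibitors and clearance receptors, A2m, a plasma-type inhibitor that traps proteases of all classes, had the largest difference. It had 5.27, 5.28 and 3.18 in the DHT-treated animals, against 9.79, 11.92 and 8.93 in the CTL animals. A2m had a log2 change of -5.63 (standard error 0.99, adjusted p = 0.104), just outside the 10% limit, and A2m was called lower without CTL replicate 3 (-6.27, adjusted p = 0.0565). Of 7 corpus luteum markers, 6 were lower in all DHT-treated animals than in any CTL animal, and 1 had a positive change. Over all probe sets 17.5% had no overlap in one direction or the other. Ptgfr, among the 6, was below background in every DHT-treated animal and in CTL replicate 3, so its order is not read. The summed level of the 7 markers was 9.58 to 12.16 in DHT-treated and 13.39 to 14.60 in CTL ovaries on the log2 scale. The part of luteal tissue in the A2m values was not tested. Reck, a membrane-bound inhibitor of several metalloproteinases, had 7.03, 6.95 and 6.68 in the DHT-treated animals, against 6.07, 6.46 and 4.78 in the CTL animals (log2 change 1.12, adjusted p = 0.439). Lrp1, an endocytic receptor that clears protease and inhibitor complexes, had a log2 change of 0.81 (adjusted p = 0.373) with no overlap of the groups. Timp4 was near background in all animals, at 2.28 to 2.29 in the DHT-treated group and 2.27 to 2.66 in the CTL group.

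Of 7 activators of proenzymes, 3 were higher in every DHT-treated animal than in any CTL animal (Plau, Pcsk6 and Furin) and 2 were lower (Plat and Plg), against 17.5% of all probe sets with no overlap, and none was called. Plg, the plasmin precursor, was above background in CTL replicate 2 alone, so its order is not read. Plau, the urokinase that turns plasminogen into plasmin, had 8.36, 8.69 and 9.07 in the DHT-treated animals, against 6.68, 6.88 and 4.96 in the CTL animals. Its log2 change was 2.54 (standard error 0.57, adjusted p = 0.156), and it was called higher without CTL replicate 3, at 1.93 (adjusted p = 0.0377). Pcsk6 and Furin, proprotein convertases, had log2 changes of 0.51 and 0.49 (adjusted p = 0.106 and 0.255), both under 2-fold.

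Of 6 measured ADAM proteases and 13 ADAMTS and BMP1-type proteases none was called. Adam17, which releases membrane-bound growth factors and is inhibited by Timp3, had 7.67, 7.46 and 7.48 in the DHT-treated animals, against 7.26, 7.06 and 6.47 in the CTL animals (log2 change 0.60, adjusted p = 0.385). Adam15 had a log2 change of -0.46 (adjusted p = 0.373) and Adam10 was below background on all 6 arrays. Adamts10 and Bmp1, a procollagen C-proteinase, had 0.57 and 0.80 with no overlap of the groups (adjusted p = 0.296 and 0.399), and Adamts5, which cuts aggrecan and versican, had 1.05 with an overlap (adjusted p = 0.495). Among collagen receptors, Ddr2 had a log2 change of 0.31 (adjusted p = 0.176), Cd44 -0.66 (adjusted p = 0.625) and Itgb3 -0.33 (adjusted p = 0.896).

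Of 13 matrix proteins that these enzymes cut, 11 had a positive log2 change and none was called. Their median was 0.62, but it was -0.23 against CTL replicates 1 and 2 and 1.22 against CTL replicate 3. Lamc1, a laminin chain of basement membranes, had 8.41, 8.40 and 8.52 in the DHT-treated animals, against 7.85, 8.14 and 7.68 in the CTL animals (log2 change 0.55, adjusted p = 0.179). Lamb1 and Vcan, the proteoglycan versican, had 0.74 and 1.03 (adjusted p = 0.423 and 0.486).

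The promoters of 5 of the 8 members were found in RefSeq tables of build GRCr8, each with 250 bases before and 50 after the annotated start of the gene. Those of Mmp11, with the largest mean difference of the enzymes, Timp3, with no overlap between the groups, and Mmp13, with the widest range among CTL animals of the further metalloproteinases, are shown to set the sequences beside the values above. They lie at chr20:12730034-12730333 (+ strand), chr7:19459509-19459808 (- strand) and chr8:12782579-12782878 (+ strand), and are printed in the direction of the gene, with capitals for GC boxes (GGGCGG), AP-1 sites (TGANTCA) and TATA boxes (TATAAA) on either strand.
Mmp11: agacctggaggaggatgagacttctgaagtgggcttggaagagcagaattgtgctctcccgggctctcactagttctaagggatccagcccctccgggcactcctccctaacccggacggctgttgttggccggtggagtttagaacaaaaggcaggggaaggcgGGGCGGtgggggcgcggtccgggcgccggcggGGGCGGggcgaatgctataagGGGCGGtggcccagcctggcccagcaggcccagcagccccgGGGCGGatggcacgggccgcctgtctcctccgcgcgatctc
Timp3: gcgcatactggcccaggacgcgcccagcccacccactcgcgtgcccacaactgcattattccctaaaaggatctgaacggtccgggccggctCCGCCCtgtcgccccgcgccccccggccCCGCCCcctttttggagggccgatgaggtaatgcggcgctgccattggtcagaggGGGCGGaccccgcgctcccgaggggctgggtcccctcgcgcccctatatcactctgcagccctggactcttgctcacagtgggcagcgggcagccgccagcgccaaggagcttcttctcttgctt
Mmp13: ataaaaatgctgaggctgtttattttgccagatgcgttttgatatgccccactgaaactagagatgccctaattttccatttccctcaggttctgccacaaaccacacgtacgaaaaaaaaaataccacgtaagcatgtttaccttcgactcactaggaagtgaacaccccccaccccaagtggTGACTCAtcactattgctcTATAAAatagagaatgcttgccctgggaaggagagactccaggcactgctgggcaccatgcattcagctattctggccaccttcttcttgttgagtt

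A GC box, a motif of Sp1-type factors, occurred 4 times in the Mmp11 window, starting 85, 53 and 32 bases before and 9 bases after the start, and 3 times in that of Timp3. The other members matched held 2 (Mmp23), 1 (Timp1) and 1 (Timp2), and 33.1% of all 33469 promoters held at least 1. The Mmp13 window held no GC box. It held 1 AP-1 site at 66 bases and 1 TATA box at 47 bases before the start, motifs found in 7.33% and 14.2% of all promoters, and no member's window held either. The complete androgen response element (AGAACA, any 3 bases, TGTTCT) was in none of the 6 windows searched and in 5 of all promoters. Its core (TGTTCT) occurred once each in the windows of Mmp11 and Mmp23, against 20.7% of all promoters. None of these motifs overlapped another. A match describes the letters and is no evidence of binding.

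Markers of ovarian cell types were read beside the members. Of 7 granulosa cell markers, 5 were higher in all DHT-treated animals than in any CTL animal, against 17.5% of all probe sets with no overlap in either direction. The summed linear level of the 7 markers, given on the log2 scale, was 13.04 to 13.30 in DHT-treated and 11.68 to 12.27 in CTL ovaries. Inhba, a subunit of activin and inhibin, was called higher, with 11.92, 11.62 and 11.44 in the DHT-treated animals, against 10.53, 10.14 and 9.95 in the CTL animals (log2 change 1.45, adjusted p = 0.0694). Cyp19a1, the aromatase that makes estrogen, had the largest change of the list and a negative one, with 7.51, 6.46 and 5.08 in the DHT-treated animals, against 7.20, 10.64 and 9.94 in the CTL animals (log2 change -2.91, adjusted p = 0.404). The theca hormone Insl3 was called higher at 3.11 (adjusted p = 0.0575). Of the 4 theca markers measured, 3 had a positive change and 1 a negative one. Their summed linear level overlapped, with 9.64 to 11.45 in DHT-treated and 8.88 to 11.97 in CTL ovaries on the log2 scale. Of 10 macrophage markers, 9 had a negative change and Ctss, a lysosomal protease, was called lower at -1.16 (adjusted p = 0.0994). Of 8 markers of stromal fibroblasts, 6 had a positive change and 2 a negative one. In 3 the DHT-treated animals lay above every CTL animal and in 1 below, against 17.5% of all probe sets with no overlap. Thy1, a surface glycoprotein, was called lower, with 2.85, 2.95 and 2.75 in the DHT-treated animals, against 4.71, 4.18 and 4.92 in the CTL animals (log2 change -1.76, adjusted p = 0.0581). Pdgfra lay higher without overlap, with 9.44, 9.40 and 9.62 in the DHT-treated animals, against 8.55, 8.86 and 8.73 in the CTL animals. Its log2 change of 0.78 (adjusted p = 0.0708) was under 2-fold and so no call, and it was 0.78 against CTL replicates 1 and 2. Over these 8 markers of the cells that make much of the matrix and of Mmp2 and Mmp11 in many tissues, the median change was 0.73, with 1.64 against CTL replicate 3 and -0.25 against CTL replicates 1 and 2, and their summed level was 12.69 to 12.95 in DHT-treated ovaries, against 12.94, 12.37 and 10.65 in CTL replicates 1, 2 and 3. Mmp2, Mmp11 and Timp2 were likewise lowest in CTL replicate 3, and the part of stromal cells in their values was not tested. Markers of smooth muscle had a median change of 0.22, with 1.49 against CTL replicate 3 and -0.17 against CTL replicates 1 and 2. They were lowest in sum in CTL replicate 3, at 8.02, against 9.59 to 10.60 in the DHT-treated animals and 10.10 and 10.32 in CTL replicates 1 and 2. Endothelial markers had a median of -0.58, with Kdr and Pecam1 at -1.16 and -1.10 (adjusted p = 0.268 and 0.278). Of 5 oocyte markers, 2 had a positive change and 3 a negative one, and 2 were near background on all 6 arrays. Zp2, a protein of the zona pellucida, was called higher, with 5.40, 6.03 and 5.18 in the DHT-treated animals, against 4.19, 3.86 and 3.91 in the CTL animals (log2 change 1.547, adjusted p = 0.087). Zp3 had a log2 change of 0.22 with an overlap of the groups (adjusted p = 0.896). The medians of the lists for lymphocytes, oocytes, surface epithelium, fat and red blood cells were 0.11, -0.0044, 0.36, -0.034 and -0.025, and all 4 fat markers were near background on all 6 arrays.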

How the data were processed

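Ovarian RNA was measured on 8 Affymetrix Rat Genome 230 2.0 arrays (DHT and CTL, each with 3 single animals and 1 pool of their RNA). GCRMA values on a log2 scale, 1 per probe set, were deposited by the authors, who had corrected, normalized and summarized them. Software versions are not given in the sources used here, and the labels name no batch.

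Gene symbols came from the array annotation. The 57 Affymetrix controls were left out, and DHT and CTL animals were compared over the other 31042 probe sets (20826 with 1 symbol, 436 with several, 9780 with none here) with limma 3.58.1 (lmFit, eBayes; R 4.3.3) and Benjamini-Hochberg adjusted p over all of them, the source of each gene's adjusted p. The 95% intervals are unadjusted and use its moderated degrees of freedom (5.21). The pooled arrays hold RNA of the same animals and were left out of the fit. Background on an array was the 95th percentile of its olfactory, vomeronasal and taste receptor probe sets, 40 in all. Levels of different probe sets were not compared. The summed level of a marker list is the log2 of the sum of the linear values, in which the brightest probe sets weigh most. The members, gene lists and tests were chosen with earlier results of these data known. Named genes are the members, up to 3 genes with the smallest p per pathway list and up to 2 per marker list, with examples taken from these, and the 3 genes most correlated with the enzyme and the inhibitor of the largest change. Timp4, Cyp19a1, Plat, Plg, Ptgfr and the genes called only in an alternative were added after their values were seen. The fit was tested on simulated data. Alternatives were a replicate block, the pooled arrays added as replicate 4, quantile and median scaling, no probe sets at background, a variance trend, array weights, the Gapdh 3' excess of each array in the fit, each animal left out, other call limits, the mean of all probe sets and the pooled arrays alone. The number of arrays limits the precision.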

Additional observations from a re-analysis of the deposited data

How the results depend on the processing

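By its brightest probe set, no member was called in any setting that left out an animal, and the counts called higher and lower were 0 throughout. With the pooled arrays as replicate 4 the count called higher was 1 (Mmp23, log2 change 1.09), and with the Gapdh 3' excess of each array as a covariate it was 2, Mmp11 (2.69, adjusted p = 0.0157) and Timp2 (2.12, adjusted p = 0.0167), in a fit that called 3747 probe sets over all. That covariate gave 2.44 for Timp1, 0.049 for the dimmer Mmp14 probe set and 0.12 for Mmp12. The ranges of the log2 change with 1 animal left out were -0.15 to 0.52 for Mmp2, 0.49 to 1.58 for Mmp11, 0.13 to 0.62 for Mmp14, 0.89 to 1.33 for Mmp23, -1.24 to 1.13 for Timp1, 0.31 to 1.44 for Timp2 and 0.53 to 1.001 for Timp3. With array quality weights, where CTL replicate 3 got 0.028, Mmp2 was -0.23, and it was -0.15 without that animal. The dimmer Mmp14 probe set was called lower with these weights (-1.05, adjusted p = 0.0547), and was -1.07 without that animal, not called. Mmp9 was below background throughout, so its values carry no direction: the difference was -0.043 to 0.022 with 1 animal left out, 0.011 after quantile normalization, 0.035 after median scaling, 0.014 with weights, 0.022 without CTL replicate 3 and 0.051 between the pooled arrays. Mmp14 was -0.17 as the mean of its probe sets, and Timp1 was 0.024 after median scaling, 0.23 without DHT replicate 3, 1.13 without CTL replicate 1 and 0.020 without CTL replicate 2. The dimmer Mmp23 probe set was -0.055 with weights, and -0.085 to 1.04 with 1 animal left out (-0.085 without CTL replicate 3). That probe set was called higher with the covariate (1.97), which gave 0.42 for the brighter one. The difference of the changes of Mmp14 and Timp2 was -0.84 to 0.078 with 1 animal left out (0.078 without CTL replicate 3), that of Mmp9 and Timp1, which is not read, -1.17 to 1.26 (-0.27 without DHT replicate 3, -1.17 without CTL replicate 1 and -0.062 without CTL replicate 2), and that of Mmp2 and Timp2 -0.91 to -0.47.

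Of the 63 other genes, 1 was called higher with the pooled arrays as replicate 4 (Plau), 2 (Plau and Pcsk5) with weights or without CTL replicate 3, and 6 with the covariate (Reck, Plau, Adam17, Col5a2, Col1a2 and Fn1). Called lower were 1 with the pooled arrays as replicate 4, with dim probe sets left out and with the mean of all probe sets (A2m), 4 with weights (A2m, Bsg, Adamts9, Col4a1), 3 without CTL replicate 3 (A2m, Bsg, Col4a1) and 1 without CTL replicate 1 (Mmp24); with 1 animal left out the counts were 0 to 2 higher and 0 to 3 lower. Over all probe sets the calls numbered 966 with the pooled arrays as replicate 4, 444 with dim probe sets left out, 173 after quantile normalization, 61 with a variance trend, 1874 with weights, 192 genes with the mean of all probe sets, 29 and 581 at an adjusted p of 0.05 and 0.10 with no fold minimum, 181, 92 and 1622 when CTL replicate 1, 2 or 3 was left out, and 0 when any DHT replicate was, where 2529 to 2623 had an unadjusted p under 0.05. The causes were not tested.

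Replicate numbers were shared by the groups, but same-numbered animals did not deviate together in every pair: the correlations were -0.074, 0.44 and 0.34, and 1 of the 3 DHT-treated animals correlated best with its own number. With a replicate block 0 of 31042 probe sets and 0 members were called, with 3817 and 3 at an unadjusted p under 0.05 (Mmp11, Mmp23 and Timp3, adjusted p = 0.344, 0.237 and 0.294). A background level of 1 above each array's mode left 7 members above it on all 6 arrays, Mmp9 again being the exception. With 3 animals a group most intervals are wide, and a member that was not called may still differ by an amount inside its interval.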
